A study of Mus musculus with 34 samples.

Results

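The early response of irradiated skin that lacks p53 was described in back skin of p53 knockout mice 6 h after 5 Gy of ionizing radiation, against unirradiated back skin (0 h) of the same genotype. Of the 47633 genes in the deposited back-skin table, 14126 had a mean of at least 1 FPKM (a count of sequenced fragments scaled to the length of the transcript and to library size) in either of these columns and were compared. The comparison rested on 4 of the 34 samples of the series, 2 per column, from mice aged 8 to 10 weeks whose back hair was in its growth phase. Wild-type mice and mice lacking the keratin gene Krt17, treated alike and each with its own unirradiated column, served for comparison, and a later column at 24 h followed the named genes. Back skin had no unirradiated column at 6 h, so changes with irradiation and changes with time or handling cannot be told apart. The knockout alleles, the strain, the sex and whether the samples of a group came from different animals were not given in the sources used here. Each column was the authors' mean of 2 samples, so no spread, test or p-value could be given, and 1 sample could carry any value below. Changes are log2 ratios of (mean FPKM + 1), and a gene was called higher or lower when this ratio reached 2-fold.

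Radiation breaks DNA, and p53 is the transcription factor that answers these breaks by switching on genes for cell cycle arrest and cell death. Irradiated skin also makes responses that do not require p53, among them inflammation, in which keratinocytes, fibroblasts and resident immune cells release alarmins, chemokines and acute-phase proteins. Serum amyloid A proteins and lipocalin-2 are acute-phase proteins best known from the liver, and skin makes some of them locally. Growing hair follicles add a further layer, since their matrix cells divide rapidly and fill the hair shaft with hair keratins and keratin-associated proteins.

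The columns carried the marks of the labelled tissue. In the p53 knockout, the basal keratin gene Krt14 had 1841 FPKM at 0 h and 1544 at 6 h, the suprabasal keratin gene Krt10 had 935 and 860, and keratin-associated proteins made up 13% and 8.57% of the FPKM total. Trp53, the gene of p53, was still listed at 25.8 FPKM at 0 h and 18.0 at 6 h in the knockout, and a value over the whole gene does not check a deletion of part of it. FPKM totals of the 9 back-skin columns lay between 854202 and 1095020. Read numbers were not given in the sources used here.

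At 6 h, 316 genes were at least 2-fold higher in the p53 knockout (2.24% of those compared) and 154 were at least 2-fold lower (1.09%). Of these, 67 were at least 4-fold higher and 28 at least 4-fold lower. The median log2 ratio over all genes compared was 0.03, with an interquartile range from -0.18 to 0.22. In wild type 267 genes were higher (1.92%) and 475 lower (3.41%), and in the Krt17 knockout 239 were higher (1.73%) and 167 lower (1.21%). Over all genes the wild-type median was -0.16 and that of the Krt17 knockout -0.05. The shares of all genes given here are the background for the list counts below, and in a short list a count of 0 can lie near them.

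**Figure D1:**
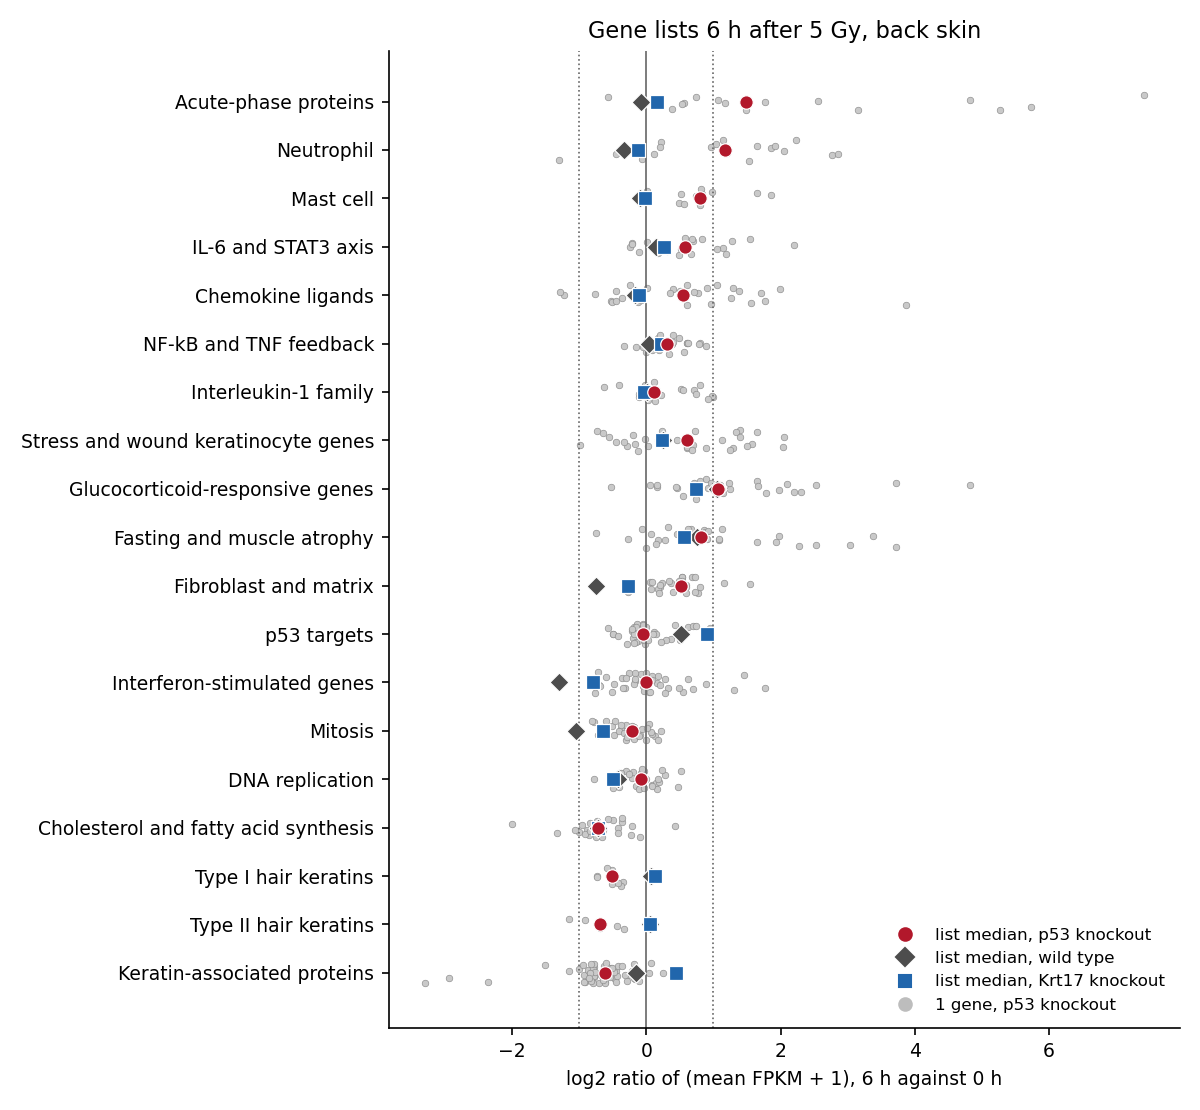
Log2 ratio of (mean FPKM + 1) at 6 h against 0 h for the genes of 19 lists; grey points are single genes in the p53 knockout, and the coloured marks are list medians in each genotype. The acute-phase median stands at 1.48 in the p53 knockout and at -0.09 and 0.16 in wild type and the Krt17 knockout, while the p53 target median stands at -0.05 against 0.52 and 0.90. Dotted lines mark 2-fold.

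Leaving aside gene models named only by a number, the 3 largest increases in the p53 knockout were those of serum amyloid A genes. Serum amyloid A3 (Saa3, chromosome 7, 46711998 to 46715700, minus strand), an acute-phase apolipoprotein made outside the liver, stood at 10.1 FPKM at 0 h, 1888 at 6 h and 138 at 24 h, a log2 ratio of 7.41 at 6 h. Its relatives Saa2 and Saa1, the liver-type forms, stood at 0.73, 90.7 and 28.3 FPKM and at 0.80, 68.4 and 17.9 FPKM, with log2 ratios of 5.73 and 5.27 at 6 h. Wild-type skin had 8.79 and 5.10 FPKM of Saa3 at 0 and 6 h and 295 at 24 h, and Krt17 knockout skin had 24.5, 12.6 and 36.9. Saa3 at 6 h was thus high in the p53 knockout column alone of the 3 genotypes, and the wild-type column was high at 24 h.

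The sequence upstream of these 3 genes is shown because they had the largest increases and form 1 cluster on chromosome 7. Each is given 5′ to 3′ on the strand of the gene, from 250 to 51 bases before the RefSeq gene start (GRCm38.p6). Saa1 is chr7:46743031-46743230 (minus strand), Saa2 is chr7:46751583-46751782 (plus strand) and Saa3 is chr7:46715727-46715926 (minus strand). Capitals mark matches on either strand to a loose form of the NF-kB site (3 G, any 5 bases, 2 C), and to TTNNGNAA, a loose form of the site of the C/EBP factors.
Saa1: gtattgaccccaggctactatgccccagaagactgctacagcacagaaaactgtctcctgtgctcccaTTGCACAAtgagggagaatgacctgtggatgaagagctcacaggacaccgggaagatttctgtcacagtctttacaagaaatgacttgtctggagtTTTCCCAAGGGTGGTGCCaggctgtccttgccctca
Saa2: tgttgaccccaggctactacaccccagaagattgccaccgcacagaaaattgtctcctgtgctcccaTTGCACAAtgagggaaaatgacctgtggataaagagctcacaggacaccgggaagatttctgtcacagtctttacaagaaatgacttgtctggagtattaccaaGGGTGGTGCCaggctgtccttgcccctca
Saa3: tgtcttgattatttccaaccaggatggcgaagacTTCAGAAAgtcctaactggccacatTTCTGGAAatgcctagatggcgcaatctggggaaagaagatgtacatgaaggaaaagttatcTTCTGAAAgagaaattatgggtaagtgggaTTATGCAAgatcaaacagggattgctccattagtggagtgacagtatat
The Saa1 and Saa2 windows were identical at 188 of 201 aligned positions (93.5%), and Saa1 and Saa3 at 107 of 210 (51%). Saa1 and Saa2 each held 1 match to the NF-kB form and Saa3 held 0, while TTNNGNAA matched 2 times in Saa1, once in Saa2 and 4 times in Saa3. In Saa1 a TTNNGNAA match directly adjoins the NF-kB match, so the capitals run together there. Windows of the same length held the NF-kB form in 36.65% and TTNNGNAA in 32.4% of 27025 RefSeq genes. Of the 10 acute-phase genes that were at least 2-fold higher, 9 had a window, 7 of them with the NF-kB form and 8 with TTNNGNAA. Of 3 other acute-phase genes compared that had a window, 2 held the NF-kB form and 3 held TTNNGNAA. Saa1 and Saa2 are so alike that the division of reads between their transcripts is uncertain.

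Other acute-phase genes were higher too. Lcn2 (chromosome 2, 32384633 to 32388252, minus strand), whose product lipocalin-2 withholds iron from bacteria, had 9.19 FPKM at 0 h, 287 at 6 h and 62.4 at 24 h. In wild type it stood at 3.26, 11.7 and 148 FPKM and in the Krt17 knockout at 4.5, 20.3 and 62.2, so it was at least 2-fold higher at 6 h in all 3 genotypes, with log2 ratios of 4.82, 1.57 and 1.95. Serpina3n, a serine protease inhibitor of the acute phase, went from 22.6 to 209 FPKM (log2 ratio 3.15) in the p53 knockout, against 24.2 and 27.9 in wild type. Its neighbours on chromosome 12, Serpina3m and Serpina3f, had log2 ratios of 2.84 and 2.56. Haptoglobin (Hp), which binds free haemoglobin, stood at 189 and 531 FPKM, the copper carrier ceruloplasmin (Cp) at 4.85 and 18.9, and the metalloreductase gene Steap4 at 23.0 and 49.1.

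Of 19 listed acute-phase genes, 15 were compared, 10 were at least 2-fold higher and 0 were lower, with a median log2 ratio of 1.48. For Saa1, Saa2 and Serpina3f only the 6 h column reached 1 FPKM, and of the 12 others 7 were higher, with a median of 1.12. The complement genes C3 (0.38) and Cfb (0.74) and the orosomucoid gene Orm1 (0.56) stayed below 2-fold, and Pla2g2f stood at -0.57. Of the list, 11 genes differed from the wild-type response by at least 2-fold, all in the higher direction, against 4.03% of all genes. Against the Krt17 knockout response 9 did so, against 2.51% of all genes. Outside the list, the long pentraxin gene Ptx3, whose product opsonizes microbes, went from 0.74 to 28.2 FPKM (log2 ratio 4.07).

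**Figure D2:**
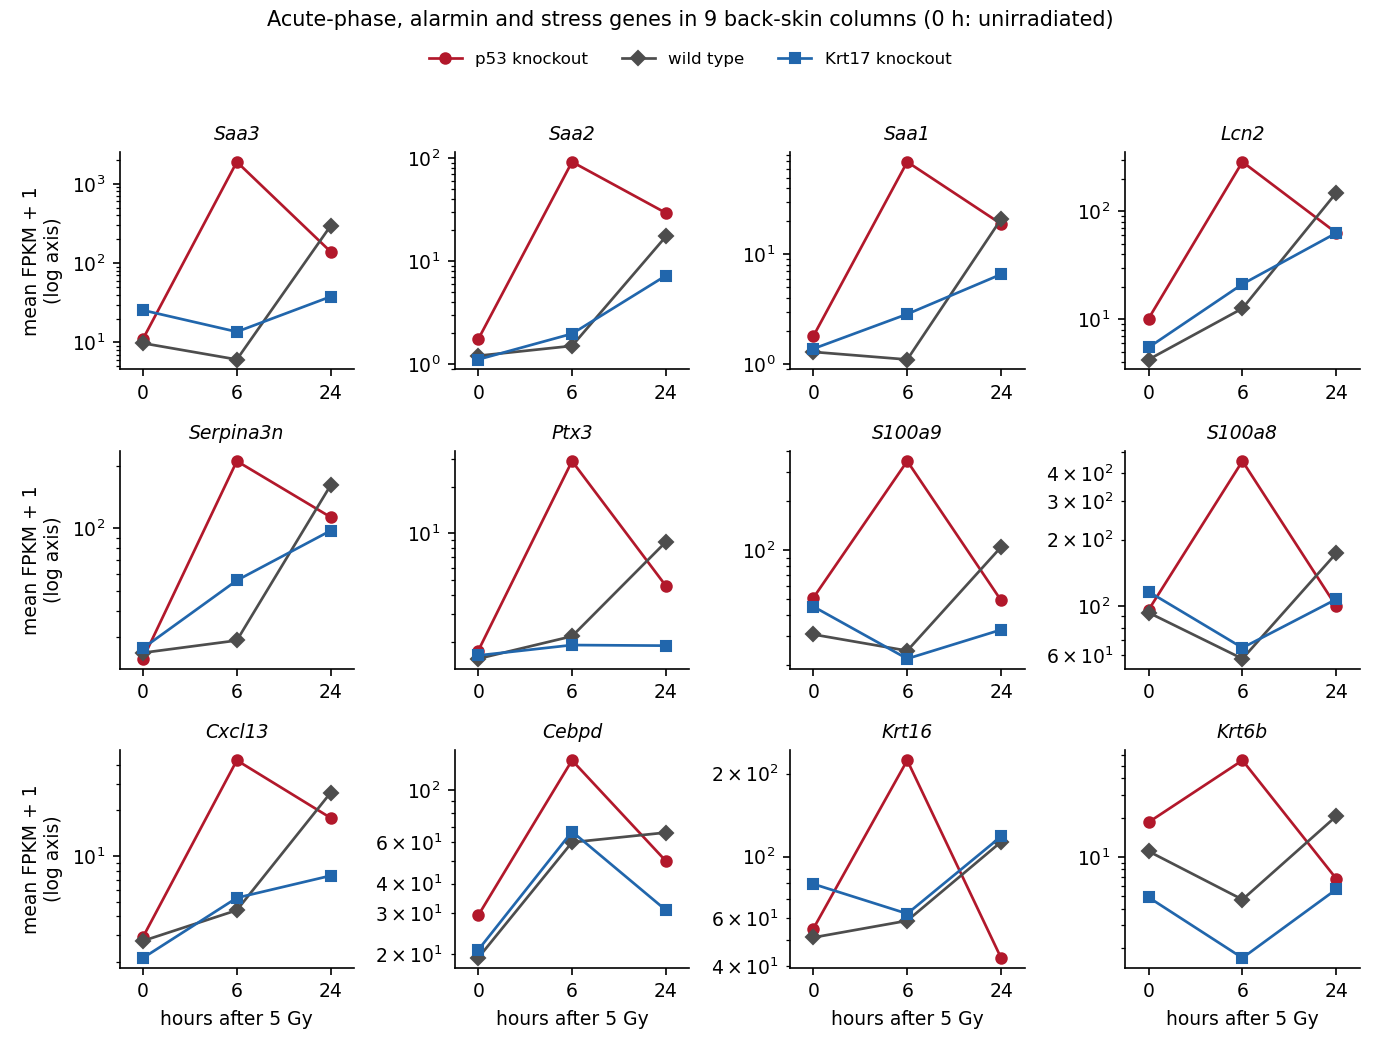
Mean FPKM + 1 (log axis) at 0, 6 and 24 h for 12 genes in the 3 genotypes; each point is the authors' mean of 2 samples, without a spread. Saa3 peaks at 1888 FPKM at 6 h in the p53 knockout, where wild type has 5.10 and reaches 295 only at 24 h.

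Genes of the IL-6 and STAT3 pathway, through which many acute-phase genes are switched on, were measured at several levels. Among transcription factors, Cebpd, which encodes C/EBP delta, stood at 28.3 and 133 FPKM (log2 ratio 2.19), and Stat3 at 12.5 and 38.2 (1.54). Both Cebpd and Stat3 were also above 0 in the other genotypes, Cebpd at 1.64 and 1.68 and Stat3 at 0.47 and 0.39. The oncostatin M receptor gene Osmr stood at 4.69 and 11.5 FPKM, and Socs3, the feedback inhibitor of the pathway, at 12.1 and 26.2. The wild-type values of Socs3 were 12.3 and 9.03. Csf3, the gene of the neutrophil growth factor G-CSF, reached 1.52 FPKM from 0.045, and Il6 itself stayed under the filter at 0.22 and 0.36 FPKM. In all, 6 of 21 genes compared were higher and 0 lower, with a median of 0.58. Csf3 passed the filter only through the 6 h column, and of the 20 others 5 were higher, with a median of 0.55. Of 24 NF-kB and TNF feedback genes (median 0.30) and 22 interleukin-1 family genes (median 0.11), 0 reached 2-fold, a share near those of all genes (2.24% higher, 1.09% lower). Their highest members were Birc3 (0.89) and Il1r1 (0.99).

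Some alarmin and neutrophil genes were also higher. S100a9 and S100a8, the subunits of calprotectin, made by neutrophils and by stressed keratinocytes, went from 50.2 to 348 FPKM and from 95.2 to 453 FPKM. At 24 h they stood at 48.3 and 98.8 FPKM, near their controls. In wild type S100a9 stood at 29.6 and 23.4 FPKM and S100a8 at 92.5 and 56.8, below their controls at 6 h. Of 26 S100 and antimicrobial peptide genes compared, 6 were higher and 1 lower, and the median was 0.04. Of the 25 whose control column reached 1 FPKM, 5 were higher and 1 lower. The chitinase-like gene Chil1 went from 33.3 to 140 FPKM and the defensin gene Defb3 from 6.61 to 16 FPKM. The lower gene, Defb4 (5.68 to 1.87 FPKM), depended on its control column, and its ratio was 0.050 against the mean of the 3 genotypes' controls. The resistin-like gene Retnlg, a neutrophil product, went from 2.88 to 27.2 FPKM, and Cxcr2, the receptor through which neutrophils follow chemokines, from 0.48 to 3.63. Of 27 neutrophil genes listed, 18 were compared, 11 were higher and 1, the lipolysis inhibitor G0s2, was lower. This list shares S100a9 with the S100 list and Hdc with the mast cell list below, so the counts are not independent. For 8 of the 18 only the 6 h column reached 1 FPKM, and of the 10 others 4 were higher and 1 lower, with a median of 0.21.

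Other genes of the neutrophil list were low in both columns. Ly6g stood at 0.031 and 0.93 FPKM and Ngp at 0 and 0.93, both above their controls at 6 h but under the filter. The primary granule genes Elane and Mpo stood lower in the 6 h column. These genes were picked from a list in which 11 of the 18 compared were higher and 1 lower. Whether the number of neutrophils changed was not tested. The summed FPKM of the list was 966 at 0 h and 1763 at 6 h in the p53 knockout and between 149 and 592 in the 6 columns of the other genotypes. Much of that sum came from S100a8, S100a9 and stefin genes, and the stefins Stfa3 and BC100530 stood at 406 and 389 and at 283 and 325 FPKM. The stefin gene Stfa1 went from 69.9 to 162 FPKM (log2 ratio 1.20) in the p53 knockout, against 44.2 and 9.14 in wild type. In bulk skin, more or fewer cells of a type and more or less RNA per cell cannot be told apart. Among macrophage genes, 3 of 22 were higher, the endotoxin co-receptor gene Cd14 (3.97 to 14.7 FPKM), the haemoglobin scavenger receptor gene Cd163 (2.88 to 9.47) and Lyve1 (1.68 to 7.46), with a list median of 0.26. All 11 mast cell genes compared were above 0 (median 0.81), the 2 past 2-fold being Hdc, for histamine synthesis, and the tryptase gene Tpsab1. Both were among 4 genes that passed the filter only through the 6 h column, and of the 7 others 0 reached 2-fold. The chymase gene Cma1 stood at 14.3 and 25.7 FPKM, against 17.2 and 7.18 in wild type.

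Chemokine genes were more often higher than lower. Of 30 compared, 9 were higher and 2 lower, with a median of 0.55. Cxcl1 and Cxcl5 passed the filter only through the 6 h column, and of the 28 others 7 were higher, with a median of 0.44. Cxcl13, which attracts B cells, went from 1.92 to 41.9 FPKM (log2 ratio 3.87), Ccl9 from 7.44 to 32.4 and Ccl6 from 20.3 to 68.2. Cxcl9, an interferon-gamma-induced T cell attractant, went from 1.68 to 8.11, and the neutrophil attractants Cxcl1 and Cxcl5 reached 3.30 and 1.75 FPKM. The lower pair were Ccl27a, a keratinocyte chemokine for skin-homing T cells (333 to 142 FPKM), and Xcl1 (4.01 to 1.06). Ccl27b, a related gene outside the list, went from 41.7 to 5.37 FPKM, but its p53 knockout control stood above the wild-type (9.42) and Krt17 knockout (9.67) controls, and the ratio was -1.40 against the mean of the 3. Of 17 Langerhans, dendritic and T cell genes compared, 2 were lower, Cd207 of Langerhans cells (6.22 to 2.46 FPKM) and Cd3g of T cells (11 to 3.31). None was higher, 8 stood above 0, and the median of -0.14 was 0.021 with a filter of 5 FPKM. Outside that list, Skint7, a keratinocyte gene related to the selector of epidermal gamma-delta T cells, went from 6.10 to 0.51 FPKM.

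Genes of stressed keratinocytes were higher in part. Krt16, a keratin of wounded and inflamed epidermis, stood at 53.8, 223 and 41.9 FPKM at 0, 6 and 24 h, and Krt6b, a partner keratin, at 17.4, 53.9 and 5.80. In wild type Krt16 stood at 49.9 and 57.5 FPKM and Krt6b at 10.0 and 3.70 at 0 and 6 h. The p53 knockout control of Krt6b was the highest of the 3, and against their mean its ratio was 2.46 in place of 1.58. Late cornified envelope genes of the Lce3 group, a cluster on chromosome 3 linked to barrier repair, were all at least 2-fold higher, from 1.12 for Lce3d to 1.65 for Lce3a. Lce3a and Lce3c were so in all 3 genotypes. The small proline-rich genes Sprr2i (2.05) and Sprr2d (1.5) and the urokinase receptor gene Plaur (1.39) completed the 11 of 33 stress genes that were higher, with 0 lower and a median of 0.60. In wild type 8 of the list were higher and 1 lower, and in the Krt17 knockout 5 and 1. The median difference was 0.05 from the wild-type response and -0.13 from that of the Krt17 knockout. With columns rescaled by their median ratio, 11 were higher in wild type and the median difference was -0.16. The list as a whole was thus not particular to the p53 knockout. In the opposite direction in the p53 knockout, below 2-fold, stood Ivl (-0.99), Krt17 (-0.74) and Krt6a (-0.56). The interfollicular epidermis list had a median of -0.24, and Krt2, a keratin of the upper epidermis, was its 1 member past 2-fold (17.1 to 2.90 FPKM, against 6.32 and 6.25 in wild type).

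Most connective tissue genes stood above their own control in the p53 knockout, by less than 2-fold. Of 26 fibroblast and matrix genes, 25 were above 0 (median 0.51), and the collagen crosslinking enzyme gene Lox (6.22 to 20.1 FPKM) and the fibroblast receptor gene Pdgfra (4.5 to 11.2) passed 2-fold. The wild-type median was -0.75. Of the 26 genes, 17 stood at least 2-fold above the wild-type response, against 4.03% of all genes. Above the Krt17 knockout response stood 6, against 2.51% of all genes. The control columns were unequal here, since the list summed to 1984 FPKM in p53 knockout controls against 3714 in wild-type controls, and to 2969 and 2422 at 6 h. Against the mean of the 3 control columns the p53 knockout median was 0.15. Col3a1 illustrates this, at 229 and 391 FPKM in the p53 knockout and 544 and 263 in wild type, and its ratio of 0.77 became 0.03 against the mean of the 3 controls. Among proteases and inhibitors, Timp1, an inhibitor of matrix metalloproteinases, went from 13.3 to 51.3 FPKM and the stromelysin gene Mmp3 from 11.4 to 27.9.

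Known p53 targets, the genes that p53 can switch on, were then read. In unirradiated skin the list summed to 3164 FPKM in the p53 knockout and 2998 in wild type. Of 38 targets compared, 0 were at least 2-fold higher and 0 lower, and 15 stood above 0, with a median of -0.05. Counts of 0 lie near the shares of all genes (2.24% higher, 1.09% lower), so they do not set the targets apart from other genes. Cdkn1a, the cell cycle inhibitor p21, stood at 131 and 130 FPKM, against 173 and 270 in wild type and 163 and 347 in the Krt17 knockout. Mdm2, the ligase that degrades p53, stood at 21.6 and 21.5 FPKM, and the cyclin gene Ccng1 at 20.01 and 19.3. Bbc3 (Puma), a killer protein of the Bcl2 family, stood at 4.02 and 6.10 FPKM in the p53 knockout and at 5.00 and 20.7 in wild type. The list median was 0.52 in wild type, with 9 genes higher, and 0.90 in the Krt17 knockout, with 16 higher. The p53 knockout response was at least 2-fold below the wild-type response for 8 of the 38 targets, against 1.70% of all genes, and below that of the Krt17 knockout for 16, against 2.32%.

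A few targets came close to 2-fold without p53. The antiproliferative gene Btg2 stood at 27.4 and 53.7 FPKM (log2 ratio 0.95), the death receptor gene Fas at 4.43 and 9.39 (0.94), the sestrin gene Sesn1 at 22.9 and 44.4 (0.92) and the mTOR inhibitor gene Ddit4 at 63.7 and 107 (0.74). Their wild-type ratios were 0.92, 1.47, 1.08 and 1.42. Sesn1 and Ddit4 also stand on the list of glucocorticoid-responsive genes. Of 16 Bcl2 family genes, Bmf, a BH3-only killer gene, was the 1 past 2-fold, at 1.58 and 4.73 FPKM.

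**Figure D3:**
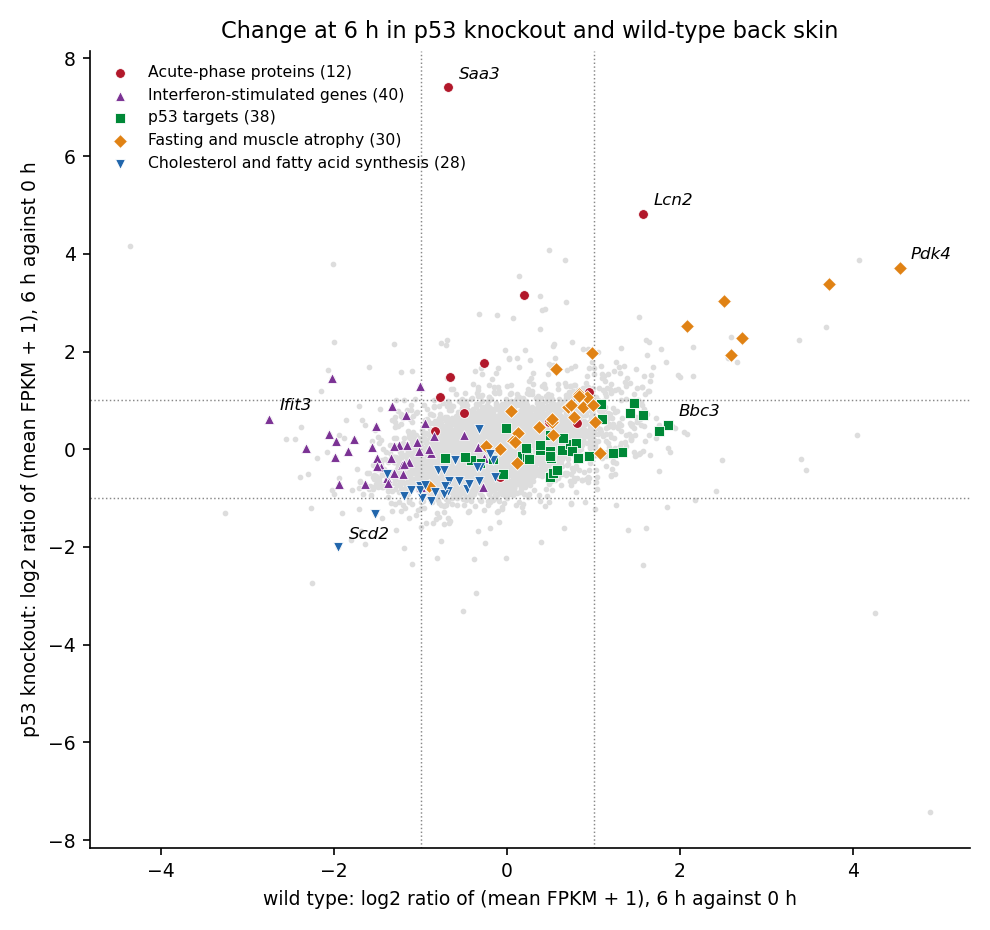
Log2 ratio of (mean FPKM + 1) at 6 h against 0 h in wild type (horizontal) and the p53 knockout (vertical) for 13589 genes that reached 1 FPKM in both comparisons; 5 lists are coloured, with the number of genes drawn. The p53 targets extend to the right with vertical values below 1, the fasting genes lie along the diagonal up to Pdk4 (3.72 vertical, 4.54 horizontal), and Saa3 stands at the top left (7.41 vertical, -0.68 horizontal). The gene at the lower right is a numbered gene model. Saa1, Saa2 and Serpina3f did not reach 1 FPKM in wild type and are not drawn.

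Many cell division and interferon genes were at least 2-fold lower in wild type and not in the p53 knockout. Of 30 mitosis genes, 0 reached 2-fold in the p53 knockout, 7 stood above 0 and the median was -0.21, with summed levels of 667 FPKM at 0 h and 534 at 6 h. In wild type 17 were lower, against 3.41% of all genes, with a median of -1.05. With columns rescaled by their median ratio, 11 were lower in wild type, with a median of -0.91. In the Krt17 knockout 3 were lower, with a median of -0.65, and 0 differed from the p53 knockout response by 2-fold. The cyclin gene Ccnb2 stood at 29.0 and 16.5 FPKM and the ubiquitin-conjugating enzyme gene Ube2c at 76.3 and 43.2. The DNA replication and DNA repair lists had medians of -0.07 and -0.08, with 0 of 30 genes in each past 2-fold. Counts of 0 of 30, here and for mitosis, lie near the p53 knockout shares of all genes (2.24% higher, 1.09% lower). Of 41 interferon-stimulated genes, 3 were higher (Cxcl9, Iigp1 and Gbp2) and 0 lower, with a median of 0.00, whereas 31 were lower in wild type (median -1.31) and 10 in the Krt17 knockout (median -0.79). Ifit3, an antiviral effector gene, stood at 4.37 and 7.27 FPKM in the p53 knockout and at 15.5 and 1.45 in wild type. With that rescaling 29 of the interferon list were lower in wild type. The p53 knockout response was at least 2-fold above that of wild type for 25 of these 41 genes and 7 of the 30 mitosis genes, against 4.03% of all genes. Summed over the interferon list, the 6 h column of the p53 knockout held 757 FPKM and its control column 1008, against 485 and 509 in the other controls, with Ifi27l2a alone at 599 against 171 and 249.

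Over all genes, the p53 knockout and wild-type responses differed by at least 2-fold for 582 genes in the higher direction (4.03%) and 246 in the lower (1.70%), with a median difference of 0.19. Rescaling the columns by their median ratio moved this median to -0.01 and the split to 383 and 386, and the wild-type counts to 375 higher and 291 lower. Under that scaling 22 interferon, 12 fibroblast, 11 acute-phase and 1 mitosis genes were at least 2-fold above the wild-type response, and 10 p53 targets at least 2-fold below. Against the Krt17 knockout 363 genes differed in the higher direction (2.51%) and 336 in the lower (2.32%), or 305 and 386 after rescaling. Of the 316 higher genes of the p53 knockout, 142 differed by at least 2-fold from both other responses, and of the 154 lower genes 56 did. These genes were chosen on the p53 knockout ratio, which enters both differences, so such counts are in part built in. Whether they exceed what this choice alone gives was not tested.

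Part of the change between the 0 h and 6 h columns was shared by the 3 genotypes. Without an unirradiated column at 6 h, how much of it followed irradiation was not tested. Of 13314 genes compared in each, 37 were at least 2-fold higher in all 3 (0.278%) and 10 at least 2-fold lower (0.0751%). Among genes compared in both, 73 were higher in the p53 knockout and in wild type, 31.6% of the 231 in the former and 32.4% of the 225 in the latter. With the Krt17 knockout 57 were shared, 24.5% of 233 and 31.5% of 181. Of the lower genes, 27 were shared with wild type, 24.3% of 111 and 6.32% of 427.

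The shared higher genes included metabolic and hormone-responsive genes. Pdk4, a kinase that turns cells from glucose to fatty acid oxidation, stood at 6.14 and 92.8 FPKM in the p53 knockout, with log2 ratios of 3.72, 4.54 and 3.59 in the p53 knockout, wild type and the Krt17 knockout. Trim63, a ubiquitin ligase of muscle atrophy, stood at 5.75 and 69.4 FPKM, with ratios of 3.38, 3.72 and 3.17. The mitochondrial carrier gene Ucp3 (2.04 to 13.7 FPKM) and the lipase inhibitor gene Angptl4 (19.1 to 115) were higher too. Txnip, an inhibitor of glucose uptake, stood at 111 and 427 FPKM. Of 30 fasting and atrophy genes compared, 11 were higher and 0 lower, with a median of 0.82. In the other genotypes the median was 0.76 (wild type) and 0.56 (Krt17 knockout). The list holds muscle genes such as Trim63, and a separate list of 28 skeletal muscle genes had medians of 0.23 in the p53 knockout (1 higher), 1.01 in wild type (14 higher) and 0.15 in the Krt17 knockout (0 higher). The part of muscle in these values was not tested. For 28 of the 30 the control column reached 1 FPKM.

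Genes that answer to glucocorticoids made a group of like size, with 15 of 28 higher, 0 lower and a median of 1.07 (1.05 in wild type, 0.75 in the Krt17 knockout). Of the 27 whose control column reached 1 FPKM, 14 were higher, with a median of 1.06. Fkbp5, which dampens the glucocorticoid receptor, stood at 8.76 and 40.7 FPKM, with ratios of 2.1, 2.15 and 2.14 in the 3 genotypes. Tsc22d3 (Gilz), an anti-inflammatory mediator, stood at 43.3 and 151 FPKM and the transcription factor gene Zbtb16 at 0.92 and 8.42. The receptor gene itself, Nr3c1, stood at 10.5 and 11 FPKM. The metallothionein genes Mt1 (1853 to 7263 FPKM) and Mt2 (2864 to 8983) had ratios of 1.97 and 1.65. Wild type had 0.98 and 0.56 for this pair, and the Krt17 knockout 0.70 and 0.38. Pdk4, Angptl4, Mt1 and Mt2 stand on both of these lists, and Lcn2 and Cebpd on this one and on an inflammatory one, so the counts are not independent.

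Lipid synthesis genes stood lower in all 3 genotypes. Of 28 cholesterol and fatty acid synthesis genes, 27 stood below 0 in the p53 knockout, with a median of -0.73. The wild-type median was also -0.73, and the Krt17 knockout had -0.72. In the p53 knockout 3 of the 28 were at least 2-fold lower, against 1.09% of all genes. Among these were the desaturase gene Scd2 (82.4 to 19.9 FPKM) and the isoprenoid enzyme gene Idi1 (79.2 to 31.0). In wild type 7 of the list were lower, against 3.41% of all genes, and in the Krt17 knockout 7, against 1.21%. Squalene epoxidase (Sqle) stood at 52.4 and 25.7 FPKM. Summed over the list, the p53 knockout had 1985 FPKM at 0 h, 1374 at 6 h and 2007 at 24 h, and wild type had 1969, 1220 and 1174. Thus the p53 knockout column at 24 h was near its control and the wild-type column was not. Other genes lower in all 3 genotypes were Gnmt, a methyl group transferase (100 to 25.3 FPKM), the clock output gene Dbp (9.89 to 2.47) and the fat cell adrenergic receptor gene Adrb3 (6.96 to 1.2).

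**Figure D4:**
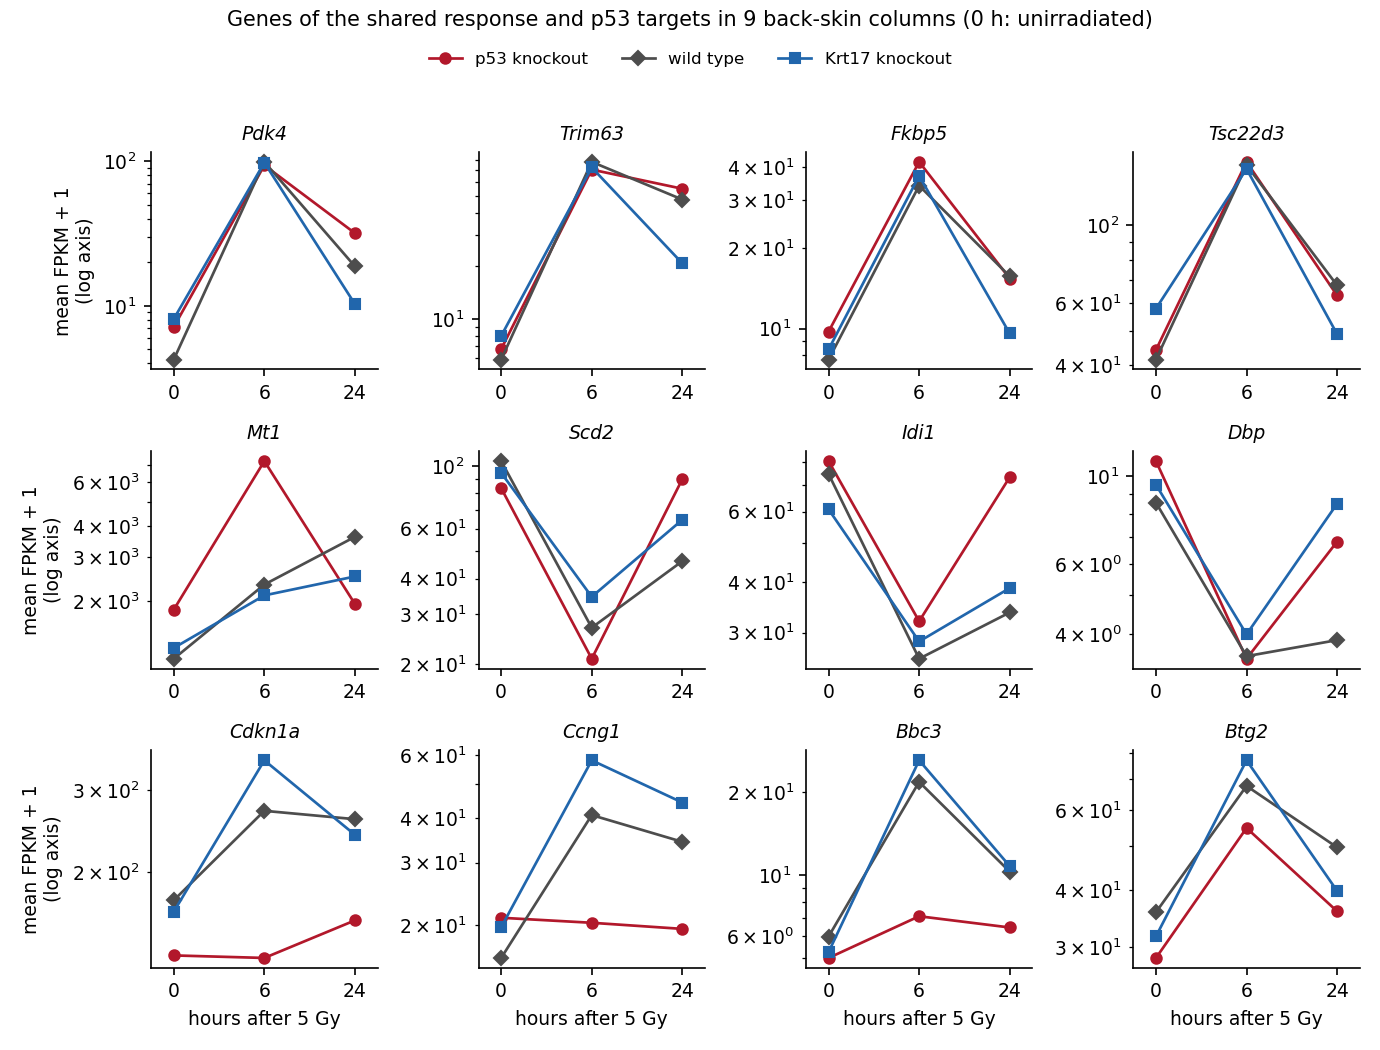
Mean FPKM + 1 (log axis) at 0, 6 and 24 h for 12 genes in the 3 genotypes; each point is the authors' mean of 2 samples, without a spread. Pdk4, Trim63, Fkbp5 and Tsc22d3 stand above their controls at 6 h in each genotype and Scd2, Idi1 and Dbp below. In the p53 knockout at 6 h, Cdkn1a and Ccng1 stay near their controls, and Bbc3 stands above its control by less than 2-fold (log2 ratio 0.50).

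Hair shaft genes stood lower in the p53 knockout at 6 h. All 9 type I and all 5 type II hair keratin genes compared were below 0, with medians of -0.51 and -0.69, and Krt84 was past 2-fold (19.5 to 8.25 FPKM). Both medians lay near 0 in wild type (0.07 and 0.06) and in the Krt17 knockout (0.13 and 0.06). Of 56 keratin-associated protein genes compared, 53 were below 0 and 6 at least 2-fold lower, with a median of -0.62. Their wild-type median was -0.15, or 0.04 after rescaling of the columns, and that of the Krt17 knockout was 0.44. The lowest were Krtap31-1 (chromosome 11, 99907920 to 99908892, plus strand), at 79.7, 7.16 and 33.0 FPKM, and its neighbour Krtap31-2, at 101, 12.3 and 38.4. In wild type Krtap31-1 stood at 184, 129 and 324 FPKM. The unirradiated p53 knockout column was thus below that of wild type, and against the mean of the 3 controls the ratio was -3.94 in place of -3.31. Abundant members were lower as well, such as Krtap19-2 at 2939 and 1323 FPKM. Near-identical members of this family can share reads, so values of single genes are uncertain. Inner root sheath genes had a median of -0.23 and the matrix regulators and Hedgehog list of 0.00, with 0 genes past 2-fold in either.

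**Figure D5:**
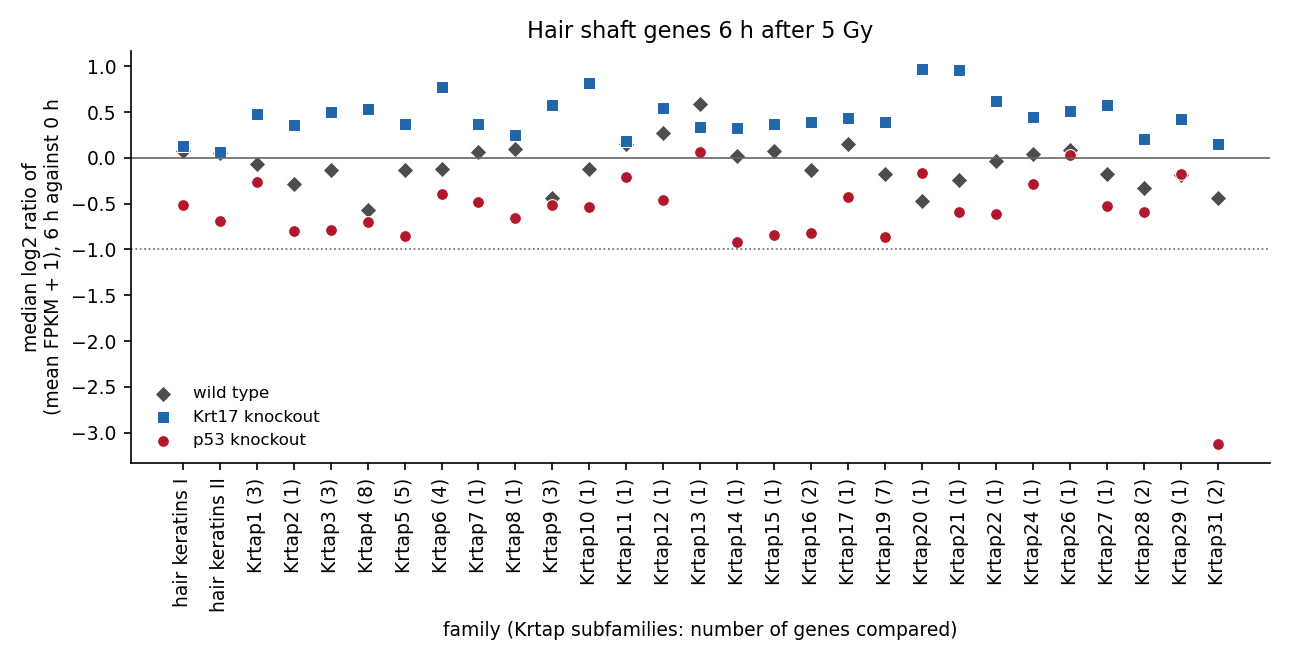
Median log2 ratio of (mean FPKM + 1) at 6 h against 0 h for hair keratins and for each Krtap subfamily (number of genes in brackets) in the 3 genotypes. The p53 knockout median is below 0 in all but the single-gene subfamilies Krtap13 (0.06) and Krtap26 (0.03), and Krtap31 stands lowest at -3.13.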

How the data were processed

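Back skin was measured by bulk RNA sequencing. The authors deposited FPKM values with 1 mean column per group of 2 samples, made with TopHat2 2.1.0, Cufflinks 2.2.1 and build mm10, per the submitters' processing notes; the annotation, strand setting and read depth were not given in the sources used here. The 116 symbols on several lines were left out, and 19 values listed at 0 where the median of the other columns was 5 FPKM or more were treated as missing. Ratios used a pseudocount of 1 FPKM and a filter of 1 FPKM in either column, which understates changes of low genes. With group means no test was possible. A difference between genotypes is the difference of their log2 ratios.

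The 43 gene lists and the Krtap family were chosen with earlier results of these data known. Some genes stand on more than 1 list, so counts of different lists are not independent. Named genes were the 20 largest increases and 20 largest decreases among genes of 5 FPKM or more. Added to these were the 10 largest differences from wild type each way. So were the 15 higher and 10 lower genes with the largest shared change in 3 genotypes. List members past 2-fold or among the 4 largest were named as well. Other members named were picked after their values were seen. Serpina3m, Ptx3 and Ccl27b, non-members set beside lists after their values were seen, were among the 20 largest increases or decreases. Gene models named by a number were left out. Positions came from GENCODE M21 and promoter windows from RefSeq, both on GRCm38, the assembly of mm10. Settings tried in turn were no filter, a pseudocount of 0.1 FPKM, a filter of 5 FPKM, rescaling by the median ratio to the geometric mean column, zeros kept, genes 8-fold apart in 1 column left out, and the mean of the 3 control columns as control. The steps were tested on simulated data. Python 3.11.15, numpy 2.4.6, pandas 2.3.3 and matplotlib 3.10.9 were used. Footpad samples were not used here, and some genes that meet the rule are not reported here.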

Additional observations from a re-analysis of the deposited data

How the results depend on the processing

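No paired analysis was possible because each column is a mean over its samples, and leaving out a replicate could not be run for the same reason. A pseudocount of 0.1 FPKM gave 520 higher and 338 lower genes in the p53 knockout, 1701 and 1296 genes differing from the wild-type and Krt17 knockout responses, and 64 higher and 36 lower in all 3 genotypes. It put the neutrophil median at 2.29. A filter of 5 FPKM gave 205 higher and 97 lower genes, 495 and 438 differing from wild type and the Krt17 knockout, and a neutrophil median of 1.89, and it turned the Langerhans, dendritic and T cell median from -0.14 to 0.021. With the mean of the 3 control columns as control, the erythroid median went from -0.16 to 0.64, Defb4 from -1.22 to 0.050, and 31 of 233 named genes moved by over 1.5 times without turning, among them Krt24 (-2.17 to -0.75), Zhx2 (-1.90 to -0.76) and Col3a1 (0.77 to 0.03). Rescaling moved the lower genes of wild type from 475 to 291, and the genes above and below the wild-type response from 582 to 383 and from 246 to 386. Under the remaining alternatives the counts of higher and of lower genes in the p53 knockout stayed within 1.5 times. List medians within 0.1 of 0 could take either sign. With no spread and no read counts, the size of a chance difference between columns is not known.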

Other observations

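Several genes with large ratios belonged to none of the groups described. Adm, which encodes the vessel-relaxing peptide adrenomedullin, had 2.83 FPKM at 0 h, 24 at 6 h and 9.03 at 24 h in the p53 knockout. It was at least 2-fold higher at 6 h in all 3 genotypes. The agouti gene (a), a secreted blocker of the melanocortin receptor that turns hair pigment yellow, stood at 1.65, 30.1 and 5.89 FPKM, against 1.77, 2.06 and 6.52 in wild type. Prg4, the gene of the lubricant lubricin, stood at 0.60, 13.1 and 14.1 FPKM, and wild type reached 30.7 FPKM at 24 h. Entpd1, an enzyme that degrades extracellular ATP, stood at 3.15, 26.9 and 5.11 FPKM, with a wild-type log2 ratio of -0.12 at 6 h. Hmox1, the haem-degrading enzyme, was the 1 of 25 Nrf2 targets past 2-fold (64.4 to 150 FPKM).

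Some genes varied widely between columns. Mrm1 went from 7.06 to 143 FPKM in the p53 knockout, but at 127 and 5.25 in wild type. Foxn3 stood at 5.39 and 93.0 FPKM in the p53 knockout and at 7.78, 146 and 326 in wild type at 0, 6 and 24 h. The small structural RNA Rmrp stood at 85.8 and 15.8 FPKM in the p53 knockout. Wild-type Rmrp values were 19.2 and 59.1 FPKM, and those of the Krt17 knockout 65.3 and 167. Rpph1, the RNA of ribonuclease P, stood at 48.0 and 20.5 FPKM in the p53 knockout and 18.4 and 68.7 in wild type. Both RNAs were thus below their controls at 6 h in the p53 knockout and above them in wild type. What these values reflect was not tested.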
